A study of Mus musculus with 12 samples.

Results

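The Myc, Max and Mxd network was followed in mouse haemopoietic stem and progenitor cells (Lin-Sca+Kit+, or LSK) with and without BCR::ABL1. Its 10 members were Myc, Mycn, Mycl, Max, Mnt, Mxd1, Mxd3, Mxd4, Mxi1 and Mlx, taken by gene symbol and matched to Ensembl identifiers, out of 56748 gene entries in each library. All 10 passed the filter on low counts and were tested. Bulk RNA-seq libraries came from 6 BCR::ABL1- samples (labelled CTRL) and 6 BCR::ABL1+ samples (labelled CML 2wk). In both groups, irradiated CD45.1 B6.SJL recipients aged 8 to 12 weeks received CD45.2 BM from SCLtTA/BCR-ABL double transgenic (DTG) donors, and donor-derived CD45.2+ LSK cells were sorted. The DTG cells in both groups therefore carried the same transgenes, namely tTA under the SCL regulatory sequence, active in stem and progenitor cells, and tTA-responsive human BCR::ABL1. Tetracycline (TET), which holds the transgene off, was given for the first 2 weeks after transplant. It was then either continued (BCR::ABL1-) or withdrawn for 2 weeks (BCR::ABL1+). Exposure to TET therefore differed between the groups as well and cannot be told apart from BCR::ABL1. The donor marrow was a frozen pool from mice of both sexes, and the labels give male for every BCR::ABL1- sample and female for every BCR::ABL1+ sample, so that sex and condition cannot be told apart.

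Proteins of this network bind DNA in pairs through a basic helix-loop-helix leucine zipper. Max is the shared partner: with Myc, Mycn or Mycl it activates transcription at E-box sequences, and with Mnt or an Mxd protein it occupies the same sequences and recruits the Sin3-HDAC corepressor. Mlx is a Max-like partner that pairs with Mnt, Mxd1 and Mxd4 and with the glucose-sensing Mondo proteins. In blood formation Myc and Mycn have overlapping roles in keeping stem cells alive and dividing, while Mxd proteins are known for rising as cells leave the cell cycle.

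The BCR::ABL1- libraries held between 22804754 and 41832868 counts, and the BCR::ABL1+ libraries fewer, between 16150817 and 25070105 (p = 0.0108, exact permutation test, two-sided). The share of counts on mitochondrial genes was 0.816 to 1.29% in BCR::ABL1- and 2.26 to 2.97% in BCR::ABL1+ (exact permutation p = 0.00216, the smallest that 6 against 6 allows). BCR::ABL1+ libraries also varied more (biological coefficient of variation 32.6%, against 10.8% in BCR::ABL1-). The fold change of a gene went with its exon length. The median log2 fold change was 0.35 over the shortest 3394 genes (up to 2541 bp) and -0.28 over the longest 3393 genes (6502 bp or more). For this reason each member is also set beside the median of genes whose exon length was within 1.2 times its own. Human BCR::ABL1 was not counted, and so the switch itself was not checked in these values. Of the sorting markers, Kit was at 681 to 800 CPM (counts scaled to library size) without BCR::ABL1 and 323 to 522 with it. Ly6a, the Sca-1 gene, was at 27.2 to 38.3 and 31.4 to 74.1 CPM.

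Of the 10 members, 7 were lower in BCR::ABL1+ LSK cells, 1 was higher and 2 did not pass the test (edgeR quasi-likelihood test, adjusted p under 0.05 over 18438 genes). The members that fell were Mycn, Mycl, Max, Mnt, Mxd1, Mxd3 and Mxd4, the member that rose was Mlx, and Myc and Mxi1 did not pass. Over all genes tested, 29.0% were lower and 30.6% higher. The median log2 fold change was -0.82 over the members and 0.07 over all genes. The groups did not overlap for 5 members that were lower (Mycn, Mnt, Mxd1, Mxd3 and Mxd4) and 1 that was higher (Mlx), where 20.6% of all genes were lower and 17.0% higher without overlap. Set against genes of like exon length, 8 members were below the median of those genes, Mxi1 was level with it (by 0.003) and Mlx above it, with a median difference of -0.64 on the log2 scale. In a bulk sample, fewer cells of one type and less RNA per cell cannot be told apart.

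**Figure D1:**
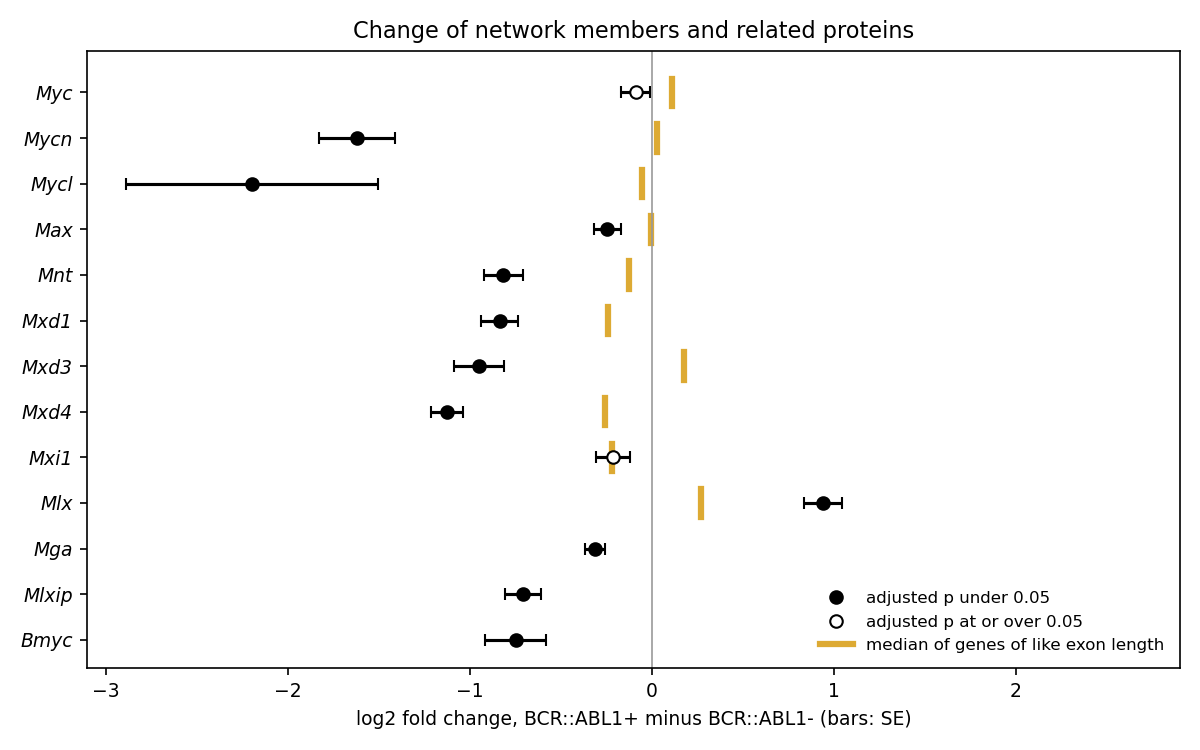
The log2 fold change (BCR::ABL1+ minus BCR::ABL1-, x axis) of each member and of Mga, Mlxip and Bmyc (y axis) is shown with its standard error, filled where the adjusted p was under 0.05. For the members the bar marks the median of genes of like exon length, and Mga, Mlxip and Bmyc have no bar. Mycl (-2.20), Mycn (-1.62) and Mxd4 (-1.12) lie furthest to the left, Mxi1 lies on its bar, and Mlx (0.94) is the member furthest to the right.

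Myc, the family member with the highest level in these cells, did not pass the test. It was at 298, 300.4, 327, 321, 320 and 360 CPM in the 6 BCR::ABL1- libraries and at 318, 364, 299, 260, 299.8 and 272 CPM in the 6 BCR::ABL1+ libraries. The groups overlapped, with the highest and the lowest value both in BCR::ABL1+. The means were 321 ± 22.4 and 302 ± 36.7 CPM (SD, n = 6 each), and the log2 fold change was -0.09 ± 0.08 (SE, adjusted p = 0.36) with a 95% interval of -0.27 to 0.09. A p that misses the threshold does not show that the levels were alike. The 3 genes whose levels followed Myc most closely within groups were Strada (Pearson r = 0.91 over 12 libraries centred on their group means), Nt5dc3 (0.91) and Egln3 (0.91), out of 13442 genes searched.

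Mycn, the paralogue known from neural tumours and expressed in haemopoietic stem cells, fell 3.07-fold. Its values were 71.6, 76.9, 69.6, 71.4, 60.7 and 65.6 CPM in BCR::ABL1- and 16.9, 24.4, 13.9, 39.2, 26.2 and 14.4 CPM in BCR::ABL1+. Every BCR::ABL1+ library was below every BCR::ABL1- library, and the BCR::ABL1+ values were the more scattered (coefficient of variation 42.8% against 8.02%), with replicate 4 the highest. The log2 fold change was -1.62 ± 0.21 (SE, adjusted p = 1.16e-05), where genes of like exon length had a median of 0.03. Mycn made up 12.8 to 17.1% of the Myc, Mycn and Mycl transcripts of a BCR::ABL1- library, counted in CPM per kb of exon, and 3.68 to 11.01% in BCR::ABL1+. In BCR::ABL1+ Myc itself made up 88.4 to 96.2% of the 3, against 81.0 to 85.3%.

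Mycl, known for its role in dendritic cells, had the lowest mean level of the members in both groups, per kb of exon as well, and the largest fall. It was at 10.1, 10.5, 14.1, 7.32, 7.44 and 11.9 CPM in BCR::ABL1- and at 0.283, 0.428, 0.735, 2.44, 0.300 and 9.18 CPM in BCR::ABL1+. In 5 of the 6 BCR::ABL1+ libraries Mycl was below every BCR::ABL1- library, and replicate 6 was within their range. The log2 fold change was -2.20 ± 0.69 (SE, adjusted p = 0.0134). Without BCR::ABL1+ replicate 6 it was -3.65 (adjusted p = 2.12e-05), and without replicate 6 of both groups it was -3.58. Values in the low libraries rested on few reads: 5 counts in replicate 1 gave a 95% exact Poisson interval of 0.092 to 0.661 CPM, and 186 counts in replicate 6 gave 7.91 to 10.6 CPM, both covering counting error only.

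The 3 genes most like Mycl within groups were Clec9a (r = 0.99 over 12 libraries), Tlr3 (0.98) and Naaa (0.98). Clec9a encodes a receptor for dead cells on conventional dendritic cells of the cross-presenting type. It was at 0.680, 0.727, 1.47, 3.69, 0.863 and 13.5 CPM in BCR::ABL1+ and between 10.2 and 20.1 CPM in BCR::ABL1-. Because Clec9a was picked for its likeness to Mycl, its high value in replicate 6 is not a separate observation. A list of 11 conventional dendritic cell markers, drawn up after this pattern was seen, summed to 966 to 1240 CPM in BCR::ABL1-, 813 CPM in BCR::ABL1+ replicate 6 and 428 to 614 CPM in the other 5 BCR::ABL1+ libraries. Most of this sum was Wdfy4 (723 to 841 CPM in BCR::ABL1-, 363 to 489.8 in BCR::ABL1+). Without Wdfy4 and the 3 genes found by their likeness to Mycl, the other 7 markers summed to 177 to 276 CPM in BCR::ABL1-, 195 in BCR::ABL1+ replicate 6 and 52.8 to 115 in the other 5. Irf8 made up much of this smaller sum, with 132 to 202 CPM in BCR::ABL1-. It was at 103.9 CPM in replicate 6, below every BCR::ABL1- library, and at 24.2 to 73.4 CPM in the other 5. Of the 8 markers not found by likeness, 7 had their highest BCR::ABL1+ value in replicate 6, and the exception was Cadm1, highest in replicate 2 (12.96 CPM, against 2.71 to 7.17 CPM in BCR::ABL1-). Itgae, unlike Mycl, had its higher values in BCR::ABL1+, with 6.03 to 36.5 CPM there against 4.82 to 6.84 CPM in BCR::ABL1-. The value of 36.5 CPM was that of replicate 6 and is part of its sum. None of the 11 was at 0 in replicate 6, and Xcr1 and Batf3 were at 0 in BCR::ABL1+ replicate 2. The part of such cells in the fall of Mycl was not tested.

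**Figure D2:**
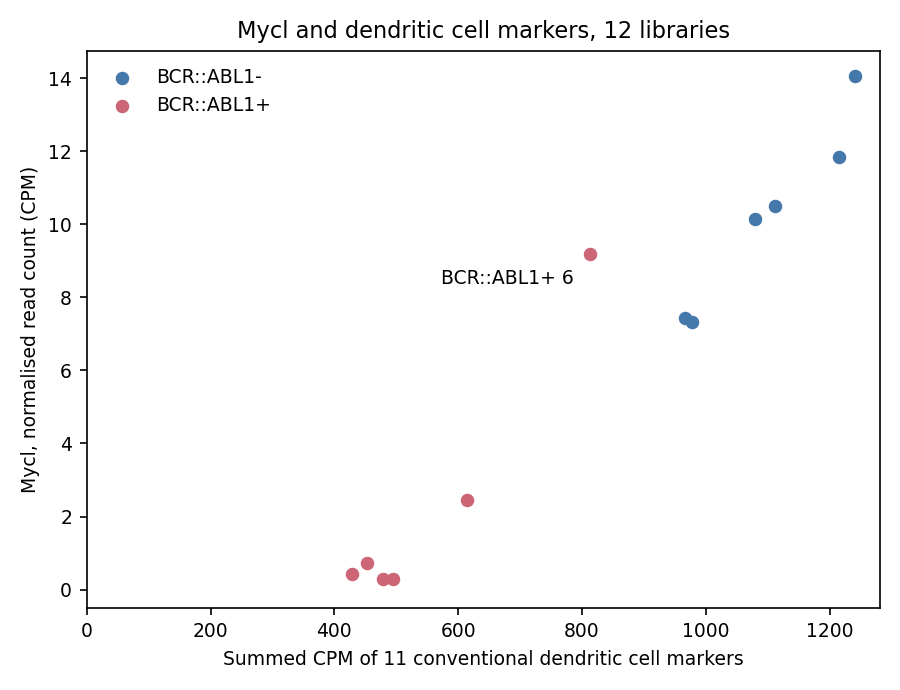
Each point is 1 of the 12 libraries, with the summed CPM of the 11 dendritic cell markers on the x axis and the CPM of Mycl on the y axis, coloured by group. BCR::ABL1+ replicate 6 (Mycl at 9.18 CPM) lies beside the BCR::ABL1- libraries on the y axis, and the other 5 BCR::ABL1+ libraries lie at 2.44 CPM or less. Of the 11 markers, Clec9a, Tlr3 and Naaa were found by their likeness to Mycl, so the axes are not independent.

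Max, the common partner, fell slightly. Its values were 96.1, 84.0, 97.2, 93.4, 90.9 and 81.3 CPM in BCR::ABL1- and 71.7, 88.9, 78.5, 70.6, 68.2 and 80.5 CPM in BCR::ABL1+. The groups overlapped through replicate 2 of BCR::ABL1+, which was above 2 of the BCR::ABL1- libraries. The means were 90.5 ± 6.50 and 76.4 ± 7.75 CPM (SD, n = 6 each), and the log2 fold change was -0.24 ± 0.07 (SE, adjusted p = 0.00974), with a median of -0.002 for genes of like exon length.

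The Max partners that repress transcription fell together apart from Mxi1. Mnt, which is present in both resting and dividing cells and opposes Myc, was at 64.8, 53.0, 57.6, 61.1, 64.0 and 60.3 CPM in BCR::ABL1- and at 31.2, 45.0, 26.5, 34.8, 37.6 and 29.6 CPM in BCR::ABL1+. The groups did not overlap, and the log2 fold change was -0.81 ± 0.11 (SE, adjusted p = 1.58e-05). Mxd1, an Mxd protein linked to terminal differentiation of myeloid cells, was at 44.9, 43.9, 39.9, 55.1, 39.0 and 34.2 CPM in BCR::ABL1- and within a narrow range of 20.7 to 27.1 CPM in BCR::ABL1+ (log2 fold change -0.84 ± 0.10, SE, adjusted p = 7.96e-06). Every BCR::ABL1+ library was again below every BCR::ABL1- library.

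Mxd3, which unlike the other Mxd genes is expressed in dividing cells during S phase, fell 1.93-fold. It was at 11.7, 10.6, 12.6, 13.7, 9.96 and 8.56 CPM in BCR::ABL1- and at 4.65, 6.12, 5.45, 6.89, 5.63 and 6.07 CPM in BCR::ABL1+ (log2 fold change -0.95 ± 0.14, SE, adjusted p = 3.41e-05). It shared 105 bp, or 4.43% of its exon length, with Prelid1 on the opposite strand, whose log2 fold change was 0.02 (adjusted p = 0.807). Mxd4 had the highest level per kb of the Mxd genes in BCR::ABL1- cells. It was at 116, 116, 111, 124, 104 and 104 CPM in BCR::ABL1- and at 48.4, 66.1, 46.6, 55.3, 46.7 and 46.9 CPM in BCR::ABL1+. The groups lay far apart, and the fall of 2.18-fold (log2 fold change -1.12 ± 0.09, SE, adjusted p = 1.48e-07) was the one with the lowest adjusted p among the members.

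Mxi1, also known as Mxd2, did not pass the test. It was at 49.7, 45.7, 45.4, 53.5, 49.8 and 40.6 CPM in BCR::ABL1- and at 38.3, 53.3, 37.7, 38.7, 37.5 and 40.0 CPM in BCR::ABL1+. In 5 BCR::ABL1+ libraries the value was below every BCR::ABL1- library, while replicate 2 was within their range. The log2 fold change was -0.21 ± 0.09 (SE, adjusted p = 0.0625), with a 95% interval of -0.42 to -0.005 before any adjustment, and genes of like exon length had a median of -0.22. Without BCR::ABL1+ replicate 2 it was -0.32 (adjusted p = 0.00129). That library also had the highest summed level of 14 stromal markers, 5829 CPM against 221 to 938 CPM in the other BCR::ABL1+ libraries, and of 10 mast cell and basophil markers, 2755 CPM. Their part in the Mxi1 value was not tested.

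**Figure D3:**
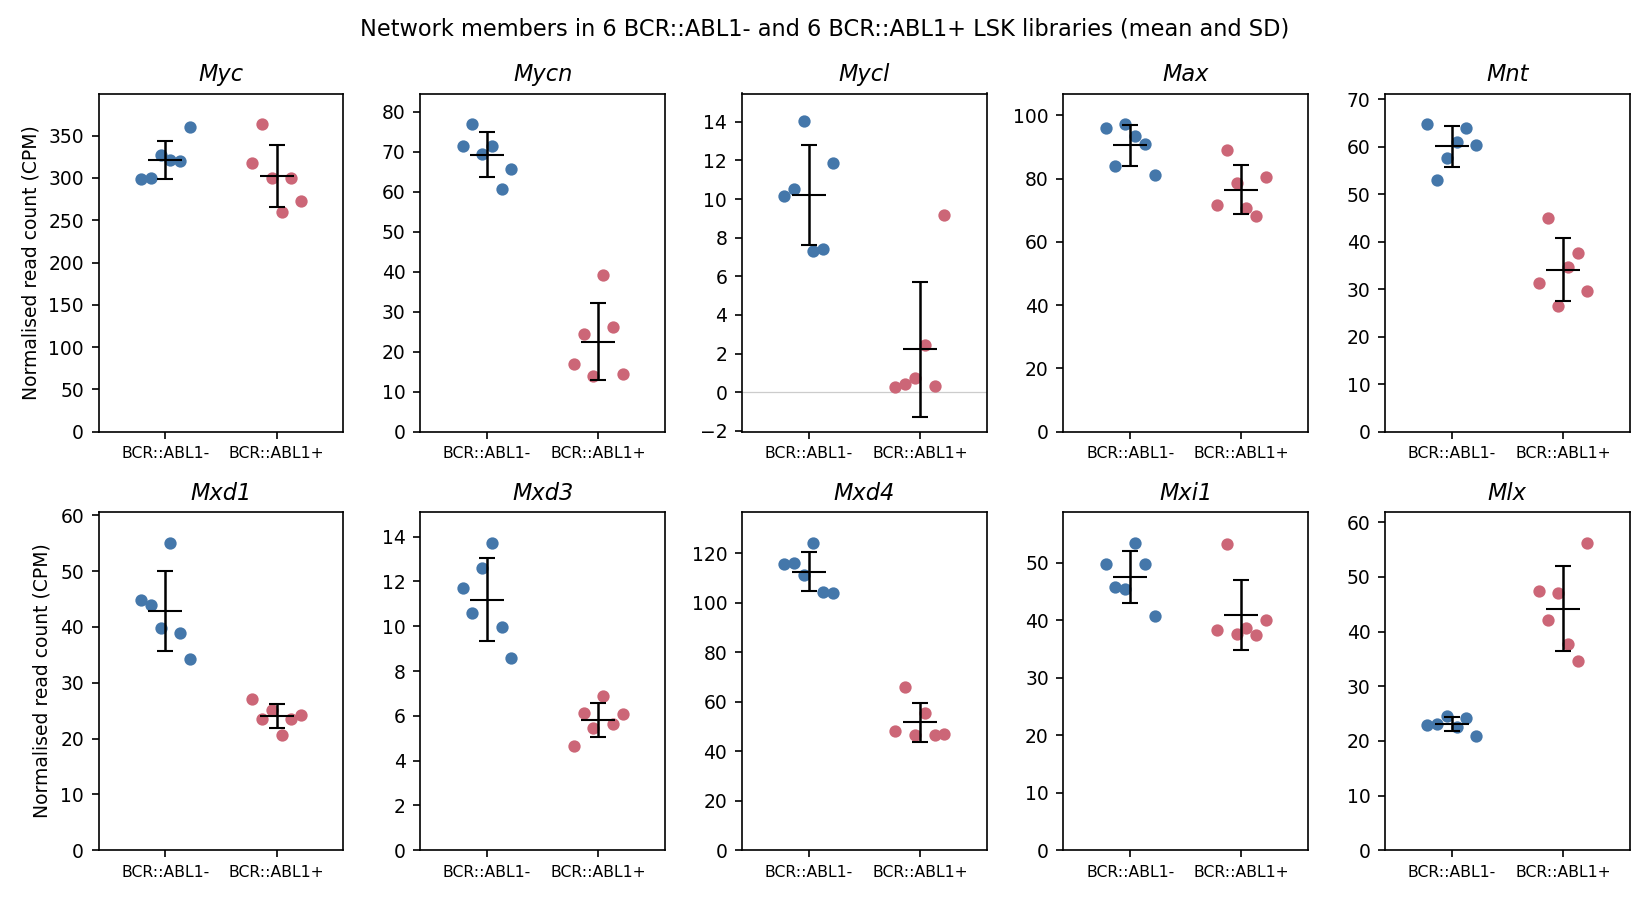
Normalised read counts (CPM, y axis, from 0 or, for Mycl, from below 0 where the SD bar reaches) of the 10 members are shown for each of 6 BCR::ABL1- and 6 BCR::ABL1+ libraries, with the mean and SD as bars. Mycn, Mnt, Mxd1, Mxd3 and Mxd4 were lower and Mlx higher without overlap, and the single high BCR::ABL1+ points are replicate 6 for Mycl and replicate 2 for Mxi1.

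Mlx was the member that rose. It was at 22.9, 23.2, 24.5, 22.4, 24.2 and 20.9 CPM in BCR::ABL1- and at 47.3, 42.2, 47.1, 37.8, 34.6 and 56.2 CPM in BCR::ABL1+, with no overlap. The log2 fold change was 0.94 ± 0.10 (SE, adjusted p = 2.5e-06), a rise of 1.92-fold, and genes of like exon length had a median of 0.27. Mlx shared 385 bp, or 19.3% of its exon length, with Psmc3ip on the opposite strand, a gene of meiotic recombination. Psmc3ip rose as well, from 14.4 to 17.4 CPM in BCR::ABL1- to between 27.5 and 37.1 CPM in BCR::ABL1+ (log2 fold change 1.00 ± 0.10, SE, adjusted p = 9.01e-07). The strand setting of the counting is not given in the sources used here, so reads from the shared stretch cannot be told apart between both genes.

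The E-box letters CACGTG, to which Myc, Mnt and Mxd proteins bind with Max, and Mondo proteins with Mlx, were searched for in the 250 bases before the start of each member. The letters read the same on both strands. RefSeq promoters (GRCm38.p6) were matched for 9 of the 10 members, with no entry for Myc. The letters were found once each before Mnt, Mxd4 and Mlx, and not before Mycn, Mycl, Max, Mxd1, Mxd3 or any of 3 Mxi1 starts. Over all 32851 promoters of this length, 6.02% held them. The 3 promoters are shown because they belong to the members that share the letters, of which Mnt and Mxd4 fell and Mlx rose. Each is printed 5' to 3' on the strand of its gene, cut short of annotated exons, with the E-box in capitals. It starts at position -123 for Mnt (chr11:74830674-74830919, plus strand), -219 for Mxd4 (chr5:34187721-34187960, minus strand) and -40 for Mlx (chr11:101087040-101087276, plus strand), where -1 is the base just before the transcript start.
Mnt: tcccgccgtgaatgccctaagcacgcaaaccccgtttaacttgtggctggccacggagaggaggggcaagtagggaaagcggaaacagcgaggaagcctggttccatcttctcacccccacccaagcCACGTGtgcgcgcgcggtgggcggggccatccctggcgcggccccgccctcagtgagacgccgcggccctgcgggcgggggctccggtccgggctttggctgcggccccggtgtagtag
Mxd4: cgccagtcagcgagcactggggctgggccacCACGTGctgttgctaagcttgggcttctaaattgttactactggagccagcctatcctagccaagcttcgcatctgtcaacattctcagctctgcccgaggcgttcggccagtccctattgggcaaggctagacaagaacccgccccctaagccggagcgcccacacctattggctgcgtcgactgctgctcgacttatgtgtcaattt
Mlx: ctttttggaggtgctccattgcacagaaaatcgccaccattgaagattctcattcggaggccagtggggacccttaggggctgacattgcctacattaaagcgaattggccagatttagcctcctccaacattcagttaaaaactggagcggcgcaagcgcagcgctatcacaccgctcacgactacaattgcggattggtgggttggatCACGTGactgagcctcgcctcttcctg
A match of letters is a description of the sequence, and binding was not measured here.

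Per kb of exon, the members spanned a wide range of levels. In BCR::ABL1- cells the order was Myc (118 CPM per kb), Max (25.1), Mycn (21.0), Mxd4 (13.3), Mnt (12.99), Mlx (11.5), Mxi1 (6.96), Mxd1 (6.06), Mxd3 (4.72) and Mycl (2.53). Mxd4 was above Mnt in 3 of 6 libraries and Mnt above Mlx in 5 of 6, so that these 3 were not separated. Max and Mycn, Mxi1 and Mxd1, and Mxd1 and Mxd3 overlapped in their ranges over libraries but kept their order within each of the 6, and the other neighbours did not overlap. In BCR::ABL1+ cells Myc was still first (111 CPM per kb), followed by Mlx (22.1), Max (21.2), Mnt (7.38), Mycn (6.84), Mxd4 (6.09), Mxi1 (5.99), Mxd1 (3.40), Mxd3 (2.45) and Mycl (0.552). There Mlx was above Max in 3 of 6 libraries, Mnt above Mycn in 5, Mycn above Mxd4 in 2 and Mxd4 above Mxi1 in 3, and Mxd3 overlapped with Mycl in range but was above it in each of the 6. Mlx thus stood level with Max in BCR::ABL1+ cells, after being below Max in every BCR::ABL1- library.

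The balance between partners is described by ratios of these per-kb levels within a library, with no test since the members fix them. Myc, Mycn and Mycl together were at 134 to 155 CPM per kb in BCR::ABL1- and 107 to 141 in BCR::ABL1+. The repressors Mnt, Mxd1, Mxd3, Mxd4 and Mxi1 together were at 39.7 to 49.3 and 22.6 to 31.2 CPM per kb. The ratio of the first sum to the second was 2.88 to 3.92 in BCR::ABL1- and 4.23 to 5.12 in BCR::ABL1+, without overlap. Genes of like exon length had a median log2 fold change of 0.11 for Myc, 0.03 for Mycn and -0.05 for Mycl. For the repressors this median was -0.12 (Mnt), -0.24 (Mxd1), 0.18 (Mxd3), -0.26 (Mxd4) and -0.22 (Mxi1). The ratio of the repressors to Max was 1.599 to 1.90 and 1.03 to 1.31, and that of the Myc genes to Max was 5.02 to 6.88 and 4.78 to 6.24, which overlapped. The ratio of Max to Mlx was 2.02 to 2.33 and 0.795 to 1.17. Among the repressors, Mxi1 took up 15.0 to 16.9% of transcripts in BCR::ABL1- and 22.1 to 24.99% in BCR::ABL1+, and Mxd4 28.5 to 32.2% and 22.2 to 25.5%. The shares of Mnt, Mxd1 and Mxd3 overlapped between groups. These are transcript levels, and the amounts of protein and of each pair were not measured. The part of exon length in these ratios was not tested.

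**Figure D4:**
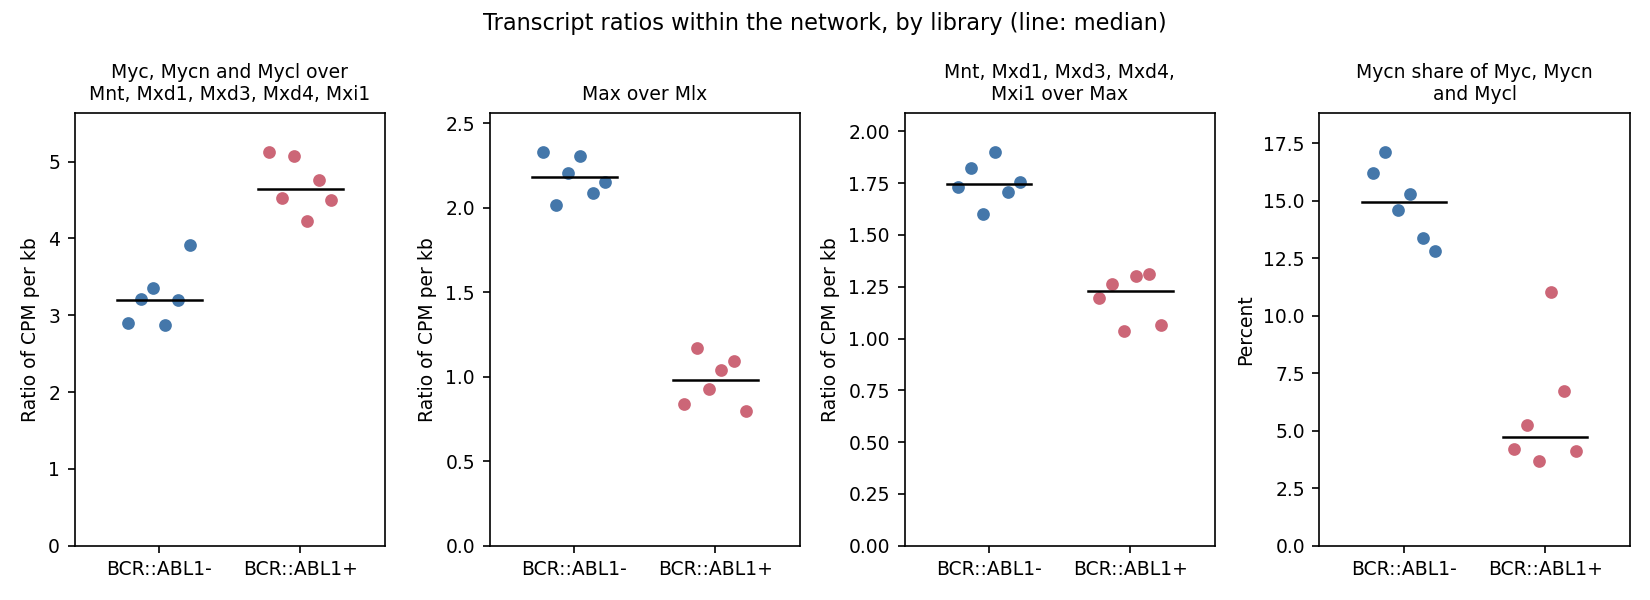
Each panel shows a ratio of CPM per kb, or a percent, for each of 6 BCR::ABL1- and 6 BCR::ABL1+ libraries, with the median as a line and the y axis from 0. The groups do not overlap in any of the 4 panels: Myc genes over repressors (medians 3.20 and 4.64), Max over Mlx (2.18 and 0.982), repressors over Max (1.74 and 1.23) and the Mycn share (14.9 and 4.73%).

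Of 4 further proteins of the network, 3 could be tested and all 3 fell, where 29.0% of all genes were lower and 30.6% higher. The counts of the lists below are to be read beside the same shares. Against genes of like exon length, 2 of the 3 proteins were below the median of those genes and 1 was above it. The median difference was -0.45 on the log2 scale. Mga, a large Max partner that represses germline genes, was at 323 to 367 CPM without BCR::ABL1 and 262 to 306 CPM with it (log2 fold change -0.31 ± 0.06, SE, adjusted p = 2.78e-04). Mlxip, which encodes the Mlx partner MondoA, was at 153 to 165 and 71.3 to 122 CPM (log2 fold change -0.71 ± 0.10, SE, adjusted p = 2.08e-05), so that it fell where Mlx rose. Bmyc, a shortened Myc relative without a DNA-binding domain, was at 5.92 to 7.85 and 3.31 to 6.25 CPM (log2 fold change -0.75 ± 0.17, SE, adjusted p = 0.00143). Mlxipl, which encodes ChREBP, had at most 8 counts in a BCR::ABL1- library and at most 20 in a BCR::ABL1+ library and did not pass the filter.

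Of 7 known targets of Mondo and Mlx, 6 fell, none rose and 1 did not pass. The median log2 fold change was -0.81 (-0.735 relative to genes of like exon length). Txnip, an inhibitor of glucose uptake and the best-known MondoA target, was at 329 to 547 CPM without BCR::ABL1 and 146 to 241 CPM with it (log2 fold change -1.31 ± 0.14, SE, adjusted p = 1.62e-06). Pklr, a pyruvate kinase gene regulated by ChREBP in liver, was at 1.38 to 4.29 and 0 to 1.78 CPM (log2 fold change -2.60 ± 0.59, SE, adjusted p = 0.00161).

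Of 32 genes known to be activated by Myc, 18 rose, 5 fell and 9 did not pass, with a median log2 fold change of 0.40 (0.34 relative to genes of like exon length). Hspe1, a mitochondrial chaperonin, rose from 80.6 ± 9.54 to 230.2 ± 73.2 CPM (SD, n = 6 each) (log2 fold change 1.51 ± 0.18, SE, adjusted p = 4.48e-06). Mrto4, a ribosome assembly factor, rose from 41.9 ± 4.51 to 109 ± 17.8 CPM (log2 fold change 1.37 ± 0.11, SE, adjusted p = 1.4e-07). The falls were led by the cyclin gene Ccnd2, from 532 to 290.1 CPM (log2 fold change -0.88), and the telomerase gene Tert, from 9.23 to 5.24 CPM (log2 fold change -0.81).

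Myc cofactors were mostly lower. Of 18 genes, 13 fell, 3 rose and 2 did not pass (median log2 fold change -0.40, and -0.32 relative to genes of like exon length). Bptf, a chromatin remodelling subunit, fell most (-0.99 ± 0.07, SE), and the helicase Ruvbl2 (0.56 ± 0.09, SE) and the actin-like subunit Actl6a (0.47 ± 0.07, SE) rose most on the log2 scale. The Sin3-HDAC corepressor, through which Mxd proteins act, was split. Of 15 genes, 8 fell and 5 rose (median -0.14, and -0.06 relative to genes of like exon length), with Arid4a (-0.91) and Ncor1 (-0.75) the largest log2 falls and the histone-binding Rbbp4 (0.71) and Sap30 (0.46) the largest log2 rises. Of 14 genes that govern the turnover of Myc protein, 8 fell, 3 rose and 3 did not pass (median -0.38, and -0.13 relative to genes of like exon length). Among them Cip2a, which protects Myc from PP2A, rose (log2 fold change 0.26), and the ubiquitin ligases Huwe1 (-0.69) and Stub1 (-0.54) fell.

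Mitosis genes fell in 10 of 16 cases and rose in 3 (median log2 fold change -0.56, and -0.45 relative to genes of like exon length). Mki67 was at -1.38 and Cenpf at -0.92 on the log2 scale, and Bub1 (0.43) and Cdk1 (0.39) were higher. S phase genes were divided, with 8 of 16 lower and 5 higher (median -0.13, and -0.002 relative to genes of like exon length). Rrm2 (0.78) and Gins2 (0.77) rose most and Uhrf1 (-0.72) and Mcm2 (-0.46) fell most. The summed level of the S phase list was 3472 to 4218 CPM without BCR::ABL1 and 3365 to 4132 CPM with it, and that of the mitosis list 4468 to 5395 and 2701 to 3403 CPM.

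**Figure D5:**
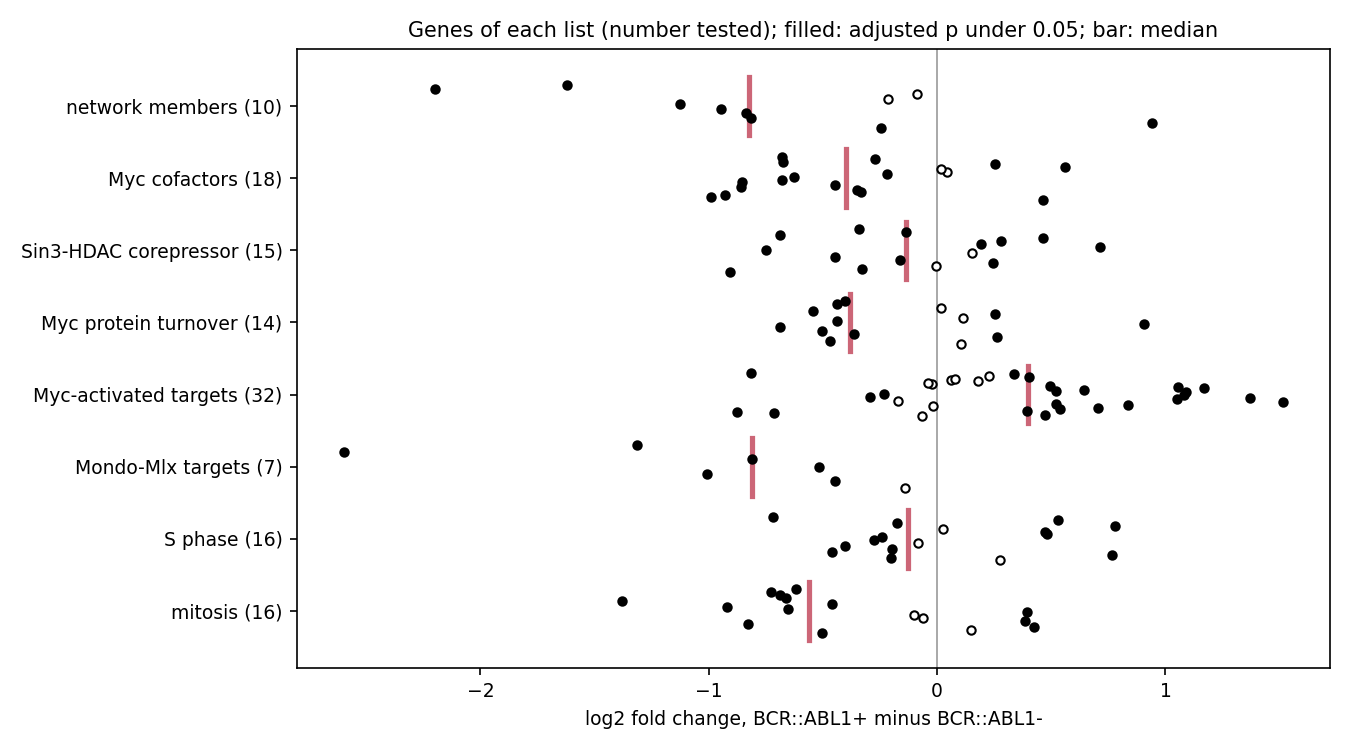
Each point is a gene of the list on the y axis (number tested in brackets), placed by its log2 fold change (BCR::ABL1+ minus BCR::ABL1-, x axis) and filled where the adjusted p was under 0.05, with the list's median as a bar. The medians of the members (-0.82) and of the Mondo and Mlx targets (-0.81) lie to the left, and that of the Myc-activated targets (0.40) to the right of 0.

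Cell type markers differed between the groups beside these changes. Of 12 LSK and stem cell markers, 11 were lower (summed level 2912 to 3334 CPM without BCR::ABL1 and 1518 to 2011 CPM with it), Cd34 and Kit among them (log2 fold change -0.44 and -0.86), and Ly6a did not pass (0.38, adjusted p = 0.066). All 6 megakaryocyte and platelet markers tested were lower (279 to 326 and 91.1 to 253 CPM), with Itga2b (-0.68) and Vwf (-2.66) highest in level. Of 10 mast cell and basophil markers 7 were higher (123 to 243 and 479 to 2755 CPM), with Cpa3 (log2 fold change 2.57) and Cma1 (6.40) highest. Among the 12 neutrophil markers 3 were higher and 4 lower (2057 to 4482 and 1801 to 5177 CPM), where 30.6% of all genes were higher and 29.0% lower. Mpo (0.67) and Elane (1.45), the highest in level, were among those that rose. The 4 that fell were S100a9 (-1.91), Ltf (-2.31), Camp (-2.87) and Ngp (-2.94), and the median of the list was -1.125. Monocyte and macrophage markers were at 360 to 587 and 554 to 1177 CPM (3 of 10 higher, 1 lower). B cell markers were at 33.5 to 139 and 26.3 to 110 CPM (0 of 9 higher, 2 lower). Erythroid markers summed to 229 to 326 and 298 to 677 CPM, but 7 of 10 were lower (median log2 fold change -2.15). Only Tfrc was higher, with means of 129 and 405 CPM. T and NK cell markers summed to 92.5 to 120 and 96.3 to 208 CPM. Of the 7 tested, 2 were higher and 2 lower (median -0.72), and the highest in level, Nkg7, had means of 82.7 and 121 CPM. The erythroid marker Hba-a1, named here for this after its values were seen, was at 0 in at least 1 BCR::ABL1+ library. The platelet marker Gp6 was not detected in BCR::ABL1+ and nearly absent in BCR::ABL1- (at most 0.040 CPM). The part of these cells in the change of any member was not tested.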

How the data were processed

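Bulk RNA-seq was analysed for 6 BCR::ABL1- and 6 BCR::ABL1+ LSK libraries (RNA HyperPrep kit, paired-end reads). The deposited files hold raw read counts per Ensembl gene, with no normalization by the authors. The study's methods name FastQC, Trim Galore!, HISAT2, featureCounts and hg38 for bulk RNA-seq, while the submitters' processing notes name FastQC 0.11.9, fastp 0.23.2, STAR 2.7.10a, featureCounts 2.0.1, DESeq2 1.36.0 and GRCm39. Which set made these counts, and the annotation, strand setting and treatment of reads mapping to several places, are not given in the sources used here. Close paralogues and overlapping genes are uncertain for this reason, and no coordinates of the files are given.

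Symbols and exon lengths (union of exons) came from GENCODE M21 by Ensembl identifier (52073 of 56748 matched), promoters from RefSeq on GRCm38.p6. All 56748 entries name a gene. Counts were fitted with edgeR 4.0.16 in R 4.3.3 (TMM factors, filterByExpr, quasi-likelihood test, Benjamini-Hochberg adjustment over 18438 genes, threshold 0.05). CPM are scaled by TMM factors, and log2 CPM for the likeness of genes used a prior count of 2. The 95% intervals of fold changes used 10 residual degrees of freedom. DESeq2 1.42.0 and limma 3.58.1 were alternatives, with other scalings, filters and thresholds, the replicate block and the leaving out of libraries. The counts of each list under these settings and the comparison with genes of like exon length were added after seeing the data. Permutation tests used scipy 1.17.1 with Python 3.11.15, summaries pandas 2.3.3 and numpy 2.4.6, and plots matplotlib 3.10.9. On simulated counts for this comparison, 87 of 100 genes changed by 1 on the log2 scale and 98 of 100 changed by 2 were called with the right sign. Of 18020 genes left unchanged 9 were called, out of 18438 genes in the step. The simulation gave both groups the same dispersion, changed few genes and took these from well counted genes. In the data the groups differed in spread and many genes changed, so these rates need not hold there.

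The members and lists were chosen with earlier results of these data known. All members are named. From each pathway list at most the 2 largest rises and 2 largest falls past the threshold with a mean log2 CPM of at least 1 are named, and from marker lists the 2 highest in level with Kit, Ly6a and Cd34. Of the genes this rule takes, 2 are not reported here. No 2 libraries were alike within sampling noise (lowest chi-square per degree of freedom 4.07). The series gives 6 recipients for each cohort, transplanted from pooled donor marrow, so p-values measure the spread between recipients and not between donors. Libraries sharing a replicate number did not deviate together (correlations of -0.12 to 0.07 within the 6 pairs), and the number was not used as a block in the main result.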

Additional observations from a re-analysis of the deposited data

Results flagged for a closer look

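Values in 62 groups of 6 libraries (14 network genes and 17 summed pathway and marker lists, each in both conditions) were searched for a single library far from the others of its group. In all, 8 were found. For normal and independent values chance gives about 1 in 20, or 3.1 of the 62. CPM need not be normal and several of the 8 were in the same library, so this number is only a rough guide. Among the network genes, Mycl in BCR::ABL1+ replicate 6 was at 9.18 CPM, with the next highest library at 2.44. Mxi1 in BCR::ABL1+ replicate 2 was at 53.3 CPM, with the next at 40.0, and Bmyc in the same library at 6.25 CPM, with the next at 4.29.

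BCR::ABL1+ replicate 2 also stood apart in 3 marker sums: stromal at 5829 CPM (next 938), mast cell and basophil at 2755 CPM (next 1152) and megakaryocyte and platelet at 253 CPM (next 134). In BCR::ABL1-, the neutrophil sum of replicate 4 was 4482 CPM (next 2574), and the T and NK cell sum of replicate 2 was low at 92.5 CPM (next 110).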

How the results depend on the processing

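In all 22 alternative fits Mycn, Mycl, Max, Mnt, Mxd1, Mxd3 and Mxd4 stayed lower and Mlx higher past the threshold, and no member changed direction. The log2 fold change ranged from -1.95 to -1.52 for Mycn and from -3.65 to -1.96 for Mycl, and that of Myc from -0.16 to -0.02 with adjusted p between 0.0644 and 0.881. Mxi1 passed the threshold in 6 of them: without the filter (-0.29), with DESeq2 (-0.24), with limma-voom (-0.30), without BCR::ABL1- replicate 6 (-0.26), without BCR::ABL1+ replicate 2 (-0.32) and without BCR::ABL1+ replicates 2 and 4 (-0.32). The cause was not tested. Requiring a log2 fold change of at least 1 in size besides the adjusted p left 1755 genes higher and 1066 lower, and of the members 0 higher and 3 lower (Mycn, Mycl and Mxd4). Leaving out each library in turn gave 5172 to 6070 genes higher and 5013 to 5937 lower, with 1 member higher and 7 to 8 lower. Upper-quartile scaling shifted the median of all genes by 0.07, gave 6352 genes higher and 4752 lower, and left 4 in place of 8 S phase genes lower. Without the filter 2 in place of 5 Sin3-HDAC genes and 1 in place of 3 turnover genes were higher, and 3 Sin3-HDAC genes were without replicate 6 of both groups. With the replicate block 4786 genes were higher and 5189 lower, with 1 member higher and 7 lower, and Mycl was at -3.22 (adjusted p = 0.00165). The block changed no call of a member, and 1 of 6 replicate numbers correlated best with its own partner. Depth limits Mycl and Mlxipl, with 5 to 45 counts of Mycl in 5 BCR::ABL1+ libraries.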
